A study of Mus musculus with 8 samples.

Results

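The 9 genes of the AMPA and kainate classes of ionotropic glutamate receptor were followed through 8 RNA-seq libraries of mouse prefrontal cortex. The members are defined by gene family and were matched by symbol: Gria1 to Gria4 encode the 4 AMPA subunits GluA1 to GluA4, and Grik1 to Grik5 encode the 5 kainate subunits GluK1 to GluK5. All 9 were found among the 24420 genes common to the 8 count tables, and all 9 were among the 14809 genes that passed the filter on low counts. All animals were male. The 3 wild-type libraries came from littermates for which the labels name no treatment. The 3 saline libraries and the 2 romidepsin libraries came from heterozygous Shank3+/ΔC mice (Jackson Labs), in which exon 21, near the C-terminal end of the postsynaptic scaffold protein Shank3, is deleted from a single copy of the gene. Romidepsin, an inhibitor of class I histone deacetylases, was injected intraperitoneally at 0.25 mg/kg on each of 3 consecutive days, saline on the same schedule, with tissue collection 1 day after the final dose. The sample labels give an age of 5 to 6 weeks, and the series' own design note a range of 5 to 8 weeks. The design asks how the Shank3-deficient cortex differs from wild type and how it differs after the drug. Because the wild-type mice have no labelled injection, genotype and saline injection cannot be told apart, and the saline libraries serve in both the genotype and the drug comparison. The labels do not say that each library is a separate animal, so the p-values below measure only the spread between these libraries.

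AMPA receptors are tetramers that carry most fast excitatory transmission in the cortex, and their subunit make-up sets conductance, kinetics and calcium entry. Kainate receptors are tetramers of the related GluK subunits, act both before and after the synapse, and modulate transmitter release and network excitability. GluK1 to GluK3 can form channels without other subunits, whereas GluK4 and GluK5 bind glutamate with high affinity and need GluK1, GluK2 or GluK3 as partners.

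The 9 genes share a channel-lining segment that shows how close, and how separable, they are in sequence. The 60 coding bases around the position of Q/R RNA editing, read 5′ to 3′ from GENCODE M21 transcripts, are given here with the codon at that position in capitals. The AMPA genes come first.
Gria1: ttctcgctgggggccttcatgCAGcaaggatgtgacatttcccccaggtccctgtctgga
Gria2: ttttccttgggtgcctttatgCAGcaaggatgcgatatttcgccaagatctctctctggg
Gria3: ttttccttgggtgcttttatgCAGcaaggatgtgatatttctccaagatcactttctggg
Gria4: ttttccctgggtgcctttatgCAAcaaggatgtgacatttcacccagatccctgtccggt
Grik1: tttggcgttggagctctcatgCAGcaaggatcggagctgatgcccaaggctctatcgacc
Grik2: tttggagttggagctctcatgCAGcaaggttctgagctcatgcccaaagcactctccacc
Grik3: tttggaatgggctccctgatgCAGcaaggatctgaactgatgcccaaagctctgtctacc
Grik4: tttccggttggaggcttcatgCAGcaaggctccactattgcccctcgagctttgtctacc
Grik5: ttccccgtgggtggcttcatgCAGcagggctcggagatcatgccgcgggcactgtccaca
The genome encodes glutamine at this position in all 9, as CAG in 8 genes and as CAA in Gria4. Gria3 matched Gria2 at 55 of the 60 bases, Gria4 at 50 and Gria1 at 47, and Grik2 at 35. Among the kainate genes Grik1 matched Grik2 at 52 bases, Grik3 at 48, Grik5 at 41 and Grik4 at 37. In GRCm38 the codon lies at chr3:80706911-80706913 in exon 11 of Gria2 and at chr10:49244329-49244331 in exon 13 of Grik2, both on the minus strand. The enzyme ADAR2, the product of Adarb1, edits this codon to an arginine codon in nearly all Gria2 mRNA, and partly in Grik1 and Grik2. Counts per gene see neither this editing nor the flip and flop splice forms of the AMPA subunits, so every value below is the summed level of all forms of a gene. At most 0.159% of the 50-base windows of a member's transcripts also occurred in another member, and at most 0.990% of its exonic bases overlapped another annotated gene.

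The libraries held 7783538 to 15156318 counts on genes, the lowest in saline replicate 3 and the highest in saline replicate 1. Although the labels name neurons as the cell type, markers of other cells were present in every library. Levels are given in CPM, the count of a gene scaled to a common library size with TMM factors. Mbp of oligodendrocytes lay at 1202 to 2442 CPM, Aqp4 of astrocytes at 123 to 205, Cx3cr1 of microglia at 57.8 to 75.6 and Cldn5 of endothelium at 19.2 to 34.1, beside 1358 to 1793 for Slc17a7 of excitatory and 302 to 331 for Gad1 of inhibitory neurons. In such bulk tissue fewer cells of a type and less RNA per cell cannot be told apart. Shank3 itself lay at 299, 308 and 348 CPM in wild type, 316, 252 and 301 after saline, and 315 and 313 after romidepsin. Counts over the whole gene include exons that remain in the altered copy, so they do not check the deletion.

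In wild type and in Shank3-deficient cortex alike, Gria1 was the most abundant member per length and Grik1 the least. Per kilobase of annotated exon, averaged over the 8 libraries, the AMPA genes lay at 71.8 CPM for Gria1 (range 65.2 to 77.6), 45.4 for Gria2 (42.6 to 51.1), 35.8 for Gria3 (32.7 to 41.8) and 20.7 for Gria4 (19.5 to 22.1). The kainate genes lay at 48.3 for Grik5 (40.7 to 51.7), 19.2 for Grik3 (15.6 to 22.6), 5.42 for Grik4 (4.37 to 5.94), 4.08 for Grik2 (3.77 to 4.55) and 2.55 for Grik1 (2.09 to 3.06). In this order the ranges of Grik5 and Gria2, of Gria4 and Grik3, and of Grik4 and Grik2 overlapped, and the other neighbours did not. Grik5, which cannot form a channel by itself, thus stood above each of its possible partners Grik1, Grik2 and Grik3 in all 8 libraries. The order depends on the length used: divided by the longest transcript, Gria2 (68.0) and Gria3 (67.7) lay above Grik5 (61.5), and Grik2 (5.73) above Grik4 (5.48). The exon total of Gria2 spans 15548 bases, against 10371 in its longest transcript.

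**Figure D1:**
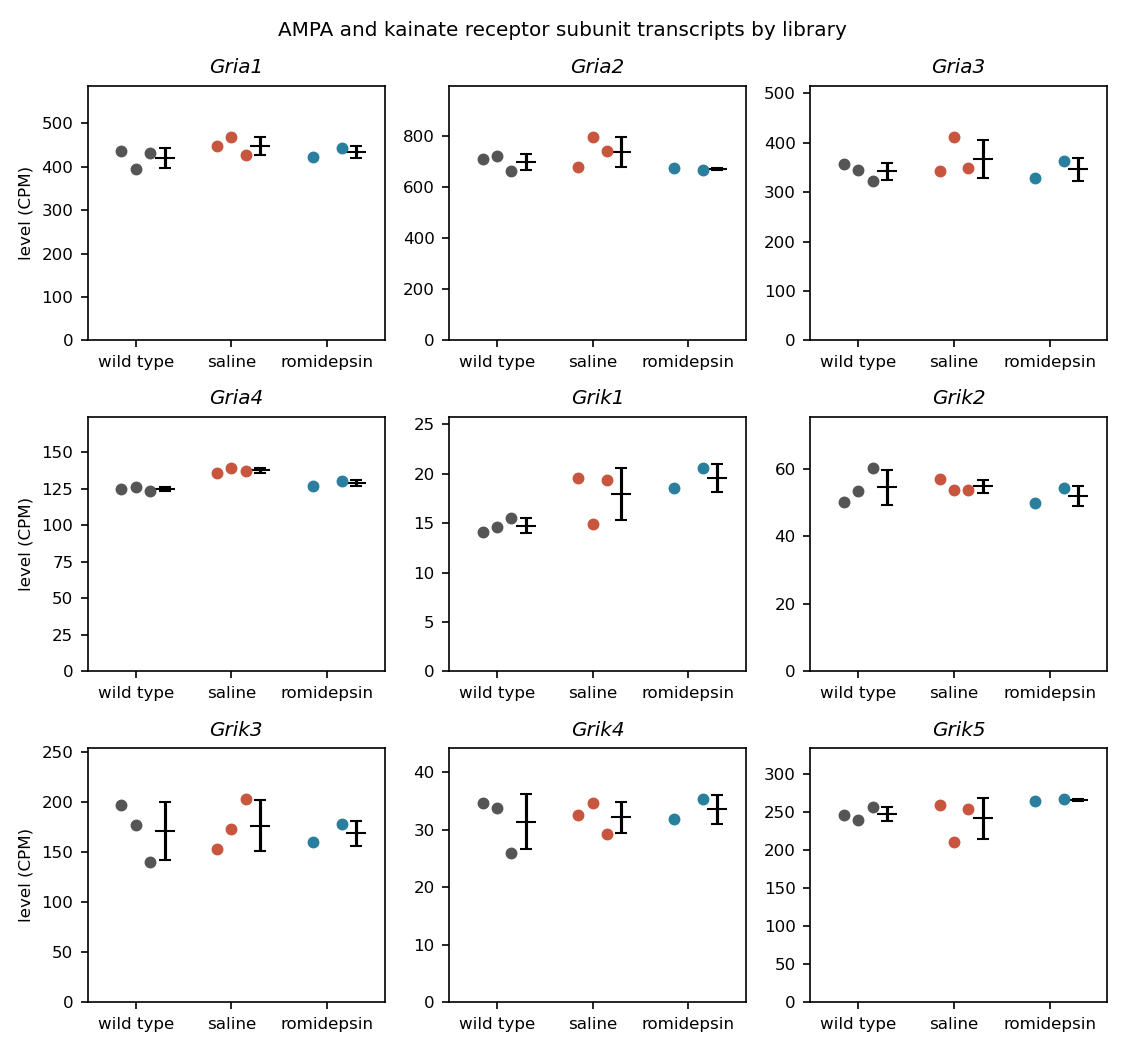
Level of each AMPA and kainate subunit gene in each library, in TMM-scaled CPM, on an axis from 0 of its own for each gene, with a point for each library and, beside the points, the group mean ± SD. Gria2 and Gria1 have the highest counts and Grik1 the lowest, and the 3 groups lie within the spread of their libraries for most genes.

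No subunit gene passed the test for a difference between saline-treated Shank3-deficient and wild-type cortex. The 4 AMPA genes all had higher mean levels after saline, by log2 fold changes of 0.08 to 0.14, and 4 of the 5 kainate genes were also higher, with Grik1 at 0.29. Without saline replicate 2, Gria1 was at 0.06, Gria2 at 0.02 and Gria3 at 0.01, and the AMPA median at 0.04. With edgeR's quasi-likelihood test and Benjamini-Hochberg adjustment over 14809 genes, 0 of the 9 were called, where 0.00675% of all genes were called (1 gene, the pseudogene Tmem181b-ps, whose reads may be shared with related copies). At an unadjusted p under 0.05, 1 of 9 members, Grik1, passed, against 8.39% of all genes. No member did so in 8 of 13 alternatives, among them DESeq2, the GC correction and the fit of only the 2 groups. The libraries of the 2 groups did not overlap for 1 member, Gria4, against 12.6% of all genes. The median log2 fold change was 0.10 over the AMPA genes and 0.04 over the kainate genes, beside 0.0047 over all genes, of which 51.3% were higher. Markers of other tissue components are given for the same comparison. Of 12 endothelial and mural markers 10 were lower after saline (summed 281 to 347 CPM in wild type, 200.1 to 276 after saline and 261 to 311 after romidepsin), all 10 meningeal and fibroblast markers were higher (106 to 172, 110.2 to 257 and 130 to 192), and all 8 markers of olfactory and septal tissue were higher (39.6 to 81.4, 64.6 to 94.7 and 44.2 to 45.8). Of 12 excitatory neuron markers 7 were higher and 5 lower, of 12 inhibitory neuron markers 7 and 5, and of 10 astrocyte markers 6 and 4. Striatal markers had 6 higher and 4 lower, microglial markers 9 and 1, oligodendrocyte markers 1 and 8, and oligodendrocyte precursor markers 2 and 6. Libraries did not overlap for 7 of the 12 endothelial, 1 of the 10 meningeal and 1 of the 8 olfactory markers. None of these was called, and their part in the subunit values was not tested.

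The drug comparison gave the opposite sign for the AMPA genes. All 4 had lower mean levels after romidepsin than after saline, with a median log2 fold change of -0.09, while 3 of the 5 kainate genes were higher, with a median of 0.06. By the same edgeR test 0 of the 9 members were called, where 0% of all genes were called, and 0 of 9 had an unadjusted p under 0.05, against 3.26% of all genes. The libraries did not overlap for Gria2, Gria4 and Grik5, that is 3 of 9, where 20.9% of all genes did not overlap. The saline libraries are shared by both comparisons, so a low or high saline mean enters both with opposite sign. Without saline replicate 2 the AMPA median was -0.05 and Gria3 was at 0.0050, and without romidepsin replicate 1 the median was -0.05 as well.

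Marker lists had their own directions in the drug comparison, and none of their genes was called. All 8 markers of olfactory or septal origin had lower means after romidepsin (median log2 fold change -1.03, 6 not overlapping), as did 10 of 10 meningeal markers (-0.30, 1 not overlapping) and 9 of 9 oligodendrocyte markers (-0.19, 1 not overlapping). The oligodendrocyte markers summed to 3021 to 4921 CPM in wild type, 2943 to 5436 after saline and 3253 to 3739 after romidepsin. Of 12 endothelial and mural markers 12 were higher (0.26, 4 not overlapping), and of 12 inhibitory neuron markers 11 were higher (0.14, 6 not overlapping). Of 12 excitatory neuron markers 7 were higher and 5 lower (0.04, 3 not overlapping). They summed to 7793 to 8483 CPM in wild type, 7584 to 7872 after saline and 8283 to 8469 after romidepsin. Of 10 astrocyte markers 7 were higher, of 10 striatal markers 6, of 10 microglial markers 9 and of 8 oligodendrocyte precursor markers 7. Of all genes 20.9% did not overlap in this comparison. The part of these markers in the subunit values was not tested.

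Set directly against wild type, the romidepsin libraries had 3 of 4 AMPA genes higher with a median log2 fold change of 0.03, and 3 of 5 kainate genes higher with a median of 0.10. Again 0 of the 9 were called by edgeR, against 0.00675% of all genes, and Grik1 was the 1 member with an unadjusted p under 0.05, against 3.24% of all genes. Gria4, Grik1 and Grik5 had libraries that did not overlap, where 18.4% of all genes did not. In the test for any difference among the 3 groups 0 of 9 were called (0.00675% of all genes), and Grik1 alone had an unadjusted p under 0.05 (5.46% of all genes). No member passed unadjusted in 1 of 12 alternatives for romidepsin against wild type (without romidepsin replicate 2) and in 4 of 14 for any difference, among them DESeq2. DESeq2 and limma-voom called 0 members in each of these tests as well. With 3, 3 and 2 libraries the 95% intervals of the 12 AMPA contrasts ran from 0.797-fold to 1.22-fold. Those of the 15 kainate contrasts ran from 0.776-fold to 1.64-fold. Each interval covers a single contrast without adjustment for the others, so larger differences are not excluded for all genes jointly.

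**Figure D2:**
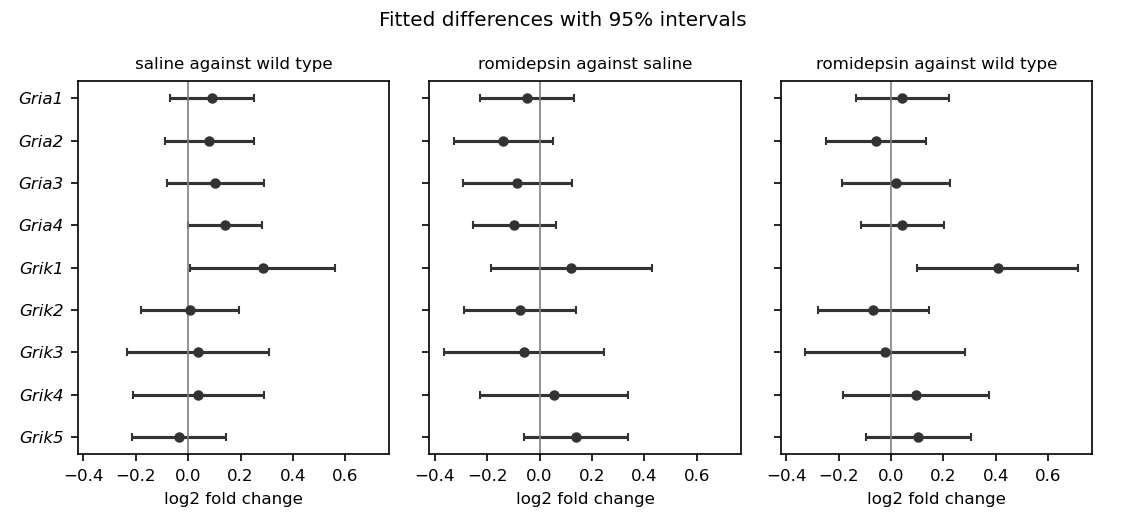
Log2 fold change of each subunit gene in the 3 comparisons, with 95% intervals from edgeR. Only the intervals of Grik1 in the comparisons with wild type exclude 0, and neither passes after adjustment over all genes.

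Among the AMPA genes, Gria1 (chr11:57011387-57330244, plus strand) encodes GluA1, the subunit whose insertion at synapses follows activity. It measured 436, 394 and 432 CPM in wild type, 448, 469 and 427 after saline and 423 and 443 after romidepsin. The groups overlap, and the saline mean was 1.07-fold the wild-type mean (95% interval 0.954 to 1.19, edgeR adjusted p = 0.781).

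Gria2 (chr3:80681450-80802835, minus strand) encodes GluA2, the subunit whose edited form makes AMPA receptors nearly impermeable to calcium. It measured 709, 720 and 662 CPM in wild type, 678, 795 and 739 after saline and 673 and 667 after romidepsin. Both romidepsin libraries lay just below the lowest saline library, and inside the wild-type range. The log2 fold change was 0.08 ± 0.08 (SE) for saline against wild type (adjusted p = 0.817) and -0.14 ± 0.09 for romidepsin against saline (adjusted p = 1.00, both by edgeR).

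Gria3 (chrX:41400854-41678601, plus strand) encodes GluA3, which pairs mainly with GluA2. Its levels were 358, 345 and 322 CPM in wild type, 342, 412 and 348 after saline and 330 and 363 after romidepsin. Saline replicate 2 was the highest library for Gria3, as it was for Gria1, Gria2 and Gria4, and the other saline libraries of Gria3 lay inside the wild-type range. The saline to wild-type fold was 1.07 (0.946 to 1.22, edgeR adjusted p = 0.785).

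Gria4 (chr9:4417896-4796234, minus strand) encodes GluA4, a fast subunit that in cortex is prominent in parvalbumin interneurons. It measured 125, 126 and 123 CPM in wild type, 136, 139 and 137 after saline and 127 and 130 after romidepsin, the only member whose 3 groups were all separate. The means were 125 ± 1.58, 137 ± 1.66 and 129 ± 2.04 CPM (SD, n = 3, 3 and 2). Saline exceeded wild type 1.10-fold (0.999 to 1.21), with an edgeR adjusted p of 0.599. The spread within groups was smaller than the 3.15, 3.70 and 3.60 CPM that counting error by itself gives, so these SDs understate the error of a single library. Summed markers of inhibitory neurons, 12 genes, lay at 1465 to 1570 CPM in wild type and at an overlapping 1452 to 1622 after saline. After romidepsin they lay at 1674 to 1721, and none of the 12 was called. The part of inhibitory neuron number in the Gria4 values was not tested.

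Among the kainate genes that form channels by themselves, Grik1 (chr16:87895900-88290265, minus strand) encodes GluK1. It measured 14.1, 14.6 and 15.5 CPM in wild type, 19.5, 14.9 and 19.4 after saline and 18.5 and 20.6 after romidepsin. Both romidepsin libraries and 2 of the 3 saline libraries lay above every wild-type library, while saline replicate 2 lay within the wild-type range. The means were 14.7 ± 0.735, 17.9 ± 2.64 and 19.5 ± 1.46 CPM. Relative to wild type, Grik1 was 1.22-fold after saline (1.01 to 1.48, unadjusted p = 0.0438, adjusted p = 0.579) and 1.33-fold after romidepsin (1.07 to 1.64, unadjusted p = 0.0130, adjusted p = 0.999), all by edgeR. Its test over the 3 groups gave an unadjusted p of 0.0299 and an adjusted p of 0.870. Grik1 had the fewest counts of the members, 142 to 298 a library. Without saline replicate 2 its log2 fold change for saline against wild type was 0.40 rather than 0.29, and its adjusted p 0.818, while without saline replicate 1 it was 0.21 and without saline replicate 3 0.23. In cortex GluK1 is also prominent in interneurons, and all 12 inhibitory neuron markers had higher means after romidepsin than in wild type, with a median log2 fold change of 0.17. Of these 7 did not overlap, where 18.4% of all genes did not. For saline against wild type 7 were higher and 5 lower, with a median of 0.03, and 1 did not overlap, where 12.6% of all genes did not. Whether that shift has a part in the Grik1 value was not tested.

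Grik2 (chr10:49094833-49788766, minus strand) encodes GluK2, a principal kainate subunit of forebrain. It measured 50.1, 53.2 and 60.2 CPM in wild type, 56.9, 53.5 and 53.7 after saline and 49.9 and 54.1 after romidepsin. Wild type spanned nearly the whole range, and the saline to wild-type fold was 1.01 (0.883 to 1.14, edgeR adjusted p = 0.990). Grik3 (chr4:125490700-125714173, plus strand), encoding GluK3, had the widest spread relative to its mean within wild type. It measured 197, 177 and 140 CPM in wild type, 153, 173 and 203 after saline and 160 and 178 after romidepsin. Its saline to wild-type fold was 1.03 (0.850 to 1.24, edgeR adjusted p = 0.957).

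Of the high-affinity partners, Grik4 (chr9:42518135-42944493, minus strand) encodes GluK4 and lay at 34.6, 33.7 and 26.0 CPM in wild type, 32.6, 34.7 and 29.4 after saline and 31.8 and 35.4 after romidepsin. Its groups overlapped throughout. Grik5 (chr7:25009849-25072346, minus strand) encodes GluK5 and measured 246, 240 and 257 CPM in wild type, 260, 211 and 254 after saline and 265 and 267 after romidepsin. Both romidepsin libraries were above all others, by 1.10-fold over saline (0.959 to 1.26, edgeR adjusted p = 1.00), and saline replicate 2 was the lowest of the 8.

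**Figure D3:**
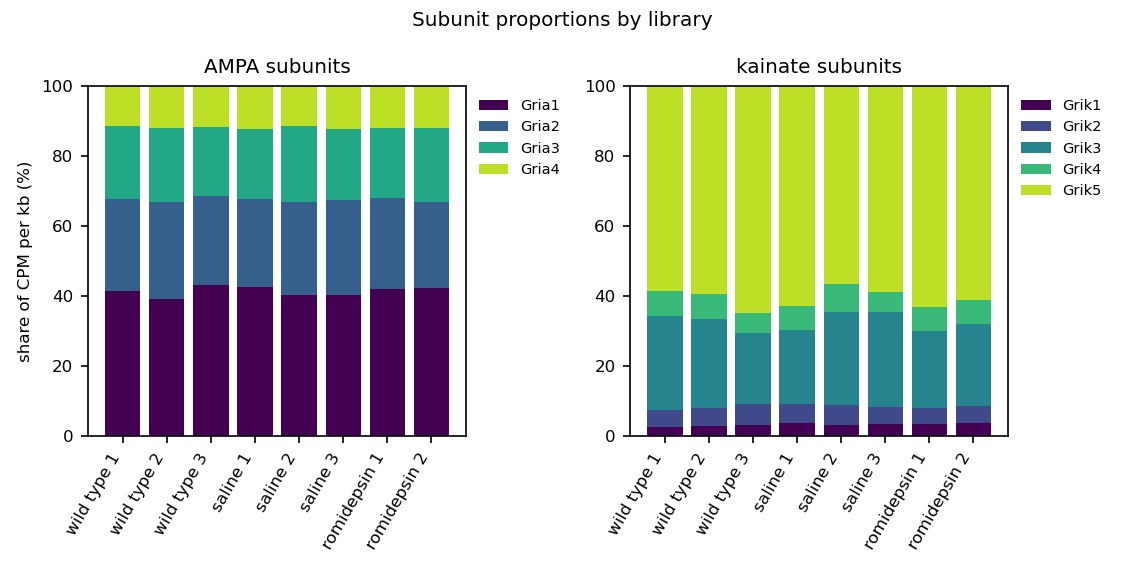
Share of each subunit in the AMPA total and in the kainate total per kilobase, in percent of CPM per exon kilobase, as a stacked bar for each library. Gria1 and Grik5 make up the largest shares in every library, and Grik1, at the foot of the kainate bars, is the smallest in all 8.

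Within each class the composition was similar in the 3 groups. Per exon kilobase Gria1 made up 41.4% of AMPA subunit mRNA over the 8 libraries, Gria2 26.1%, Gria3 20.6% and Gria4 11.9%. Grik5 made up 60.7% of kainate subunit mRNA, Grik3 24.2%, Grik4 6.82%, Grik2 5.14% and Grik1 3.20%. These shares depend on the length used: with the longest transcript Gria1 had 32.9%, Gria2 28.6%, Gria3 28.4% and Grik1 4.84%. The share of Grik1 was 2.58%, 2.79% and 3.02% in wild type, 3.63%, 3.07% and 3.44% after saline and 3.41% and 3.62% after romidepsin. The 3 wild-type libraries were thus all below the 5 Shank3-deficient ones. Libraries did not overlap in 5 of the 30 comparisons of a share between 2 groups, among them those of Grik1 with wild type. The exact permutation test over the 3 groups (560 arrangements) gave p = 0.0571 for the Grik1 share, and 0.571 adjusted over the 10 shares. With the longest transcript as length its difference between saline and wild type was 0.889 rather than 0.587 percentage points and that between romidepsin and wild type 1.06 rather than 0.718, with an exact permutation p of 0.0393 over the 3 groups, or 0.393 adjusted. Of the 10 shares 0 passed, and a pairwise exact test of 3 against 3 libraries cannot go below 0.1. Kainate subunits made up 31.8%, 31.9% and 31.5% of the mRNA of both classes in wild type, 31.5%, 27.2% and 32.3% after saline and 32.6% and 32.8% after romidepsin. The low value was saline replicate 2. Both romidepsin libraries lay above all others, with an exact permutation p of 0.1 against wild type and 0.3 against saline (0.923 adjusted for each).

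Saline replicate 2 also stood apart in base composition, and the part of this in the values of the members was not tested. The difference between the fifth of genes richest in GC and the fifth poorest, as a median log2 deviation, lay between -0.04 and 0.07 in 7 libraries and at -0.18 in saline replicate 2. Gria2 has the lowest GC of the members (36.8% of its longest transcript) and Grik5 the highest (61.7%). Across the 8 libraries the log2 levels of Gria2 and Grik5 ran in opposite directions, with Pearson r = -0.894 (exact permutation p = 0.00657, adjusted over 36 member pairs 0.237) and Spearman rho = -0.786 (exact permutation p = 0.0279, adjusted 0.335). Leaving out the 2 libraries farthest from the median of Gria2, r was -0.904, after removal of group means -0.882, and after a correction for GC content -0.697. With that correction, chosen after the data were seen, the log2 fold change of romidepsin against saline went from -0.14 to -0.06 for Gria2 and from 0.14 to 0.07 for Grik5. The Grik1 values against wild type were 0.28 and 0.40 with it. Of the 36 pairs 4 had an unadjusted p under 0.05 and 0 an adjusted one, and Gria2 with Grik5 had the smallest p. After the GC correction some other pairs had an r of larger size, among them Grik1 with Grik5 (0.881) and Gria2 with Grik3 (0.835).

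**Figure D4:**
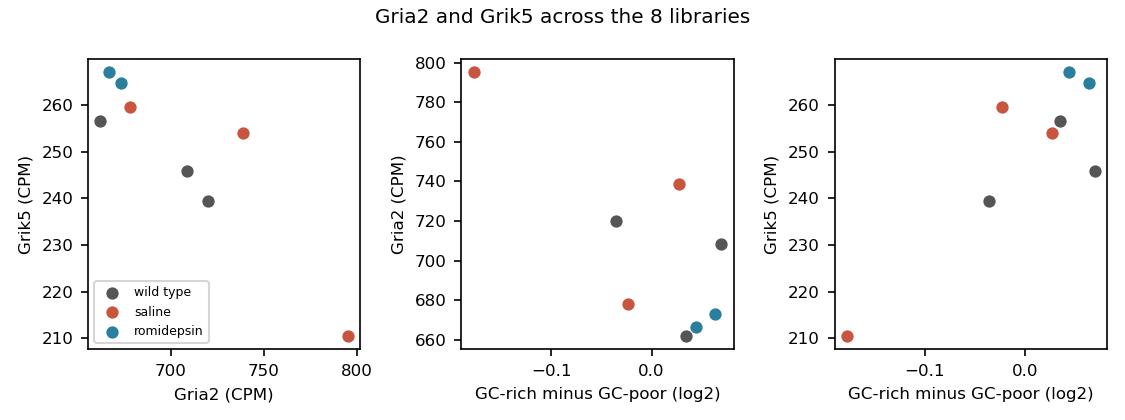
Left, TMM-scaled CPM of Grik5 against Gria2, a point for each of the 8 libraries. Middle and right, Gria2 and Grik5 against the GC-rich minus GC-poor difference of the library (log2), in which saline replicate 2 lies apart at -0.18, with the highest Gria2 and the lowest Grik5. The axes do not start at 0.

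The genes whose log2 levels followed Gria4 most closely over the 8 libraries, among 10825 genes of adequate level, were l7Rn6 (Pearson r = 0.976), Cdh2 (0.949) and Surf1 (0.942). For Grik1 they were Abcb10 (0.953), Ttll12 (0.949) and Dusp26 (0.938). They were picked as the highest of 10825 values for each member and are given as a description, with no test.

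The partners of these receptors were read from lists, 1 for each role. AMPA auxiliary subunits steer trafficking and gating. The list of 17 genes takes the term in a wide sense and includes Frrs1l, Cpt1c and Porcn. Of these 17 genes 0 were called in any comparison. From wild type to saline 7 were higher and 10 lower (median log2 fold change -0.09), and from saline to romidepsin 15 were higher and 2 lower (median 0.07), again with the saline libraries shared. Shisa7, an auxiliary subunit of this list, measured 183, 199 and 213 CPM in wild type, 179, 158 and 160 after saline and 181 and 190 after romidepsin. All saline libraries of Shisa7 were below all others, with an unadjusted p of 0.0208 over the 3 groups and an edgeR adjusted p of 0.857. It was the 1 of the 17 whose saline and wild-type libraries did not overlap, against 12.6% of all genes. Saline and romidepsin libraries did not overlap for 6 of the 17, against 20.9% of all genes. Cacng2, encoding stargazin, averaged 60.7 ± 5.26, 54.8 ± 0.616 and 61.9 ± 0.126 CPM in the 3 groups. Its wild-type replicate 3, at 54.8, lay within the saline range of 54.4 to 55.5. The romidepsin SDs here and below rest on 2 libraries. The kainate auxiliary subunit Neto1 averaged 80.4 ± 13.8, 72.7 ± 4.92 and 82.8 ± 0.938, and Neto2 79.1, 79.0 and 81.5. For Neto1 the spread within wild type exceeded the differences between groups. Its romidepsin libraries (83.4 and 82.1) lay above its saline libraries (69.8, 69.9 and 78.4), where 20.9% of all genes did not overlap.

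Of 18 trafficking and scaffold partners 17 were tested and 0 called, with 5 higher and 12 lower after saline against wild type (median -0.03) and 11 higher and 6 lower after romidepsin against saline (median 0.05). Nptx2, a secreted pentraxin that clusters AMPA receptors, averaged 94.0 ± 18.9, 78.4 ± 7.88 and 85.6 ± 0.358 CPM, and Dlg4, encoding the scaffold PSD-95, 900.0, 903 and 985. Among the 3 editing enzymes 0 were called. Adarb1, whose product edits the Gria2 codon printed above, measured 244, 245 and 249 CPM in wild type, 228, 205 and 237 after saline and 245 and 250.2 after romidepsin. All 3 saline libraries of Adarb1 were below the other 5, with a log2 fold change of -0.14 against wild type and an edgeR adjusted p of 0.635. For 12.6% of all genes the saline and wild-type libraries did not overlap, and for 20.9% the saline and romidepsin libraries.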

How the data were processed

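RNA was extracted from prefrontal cortical slices and sequenced as polyA RNA. The deposited tables hold whole-number counts per gene symbol, 1 table a library. The submitters' processing notes name bcl2fastq 2.17.1.14, TopHat2 2.1.1, HTSeq 0.6.1 and the builds mm10 and GRCm38; annotation and strand setting were not stated in the labels or files at hand. HTSeq's 5 summary entries, present in 7 of the 8 tables, were left out: there, 32.4% to 35.3% of entries fell on genes, 48.0% to 49.3% on no feature and 15.5% to 18.1% were not unique. In R 4.3.3, edgeR 4.0.16 (TMM scaling, filterByExpr, robust quasi-likelihood fit of all 8 libraries with a term per group) tested 14809 genes and left out 9611 of low count, with a threshold of 0.05 after Benjamini-Hochberg adjustment. The common biological coefficient of variation was 9.33%. Exon lengths and coordinates are from GENCODE M21 (GRCm38). Shares were compared by two-sided exact permutation tests. Alternatives were RLE scaling, no filter, DESeq2 1.42.0, limma-voom (3.58.1), only the compared groups, a replicate block, each library left out, and a GC correction added after seeing the data. Scripts were tested on simulated data. Libraries of a group differed beyond sampling noise (chi-square per degree of freedom 3.15 to 14.2). Individually described were all 9 members, the 3 genes most correlated with Gria4 and with Grik1, and list genes. The members and lists were chosen with earlier results of these data known.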

Additional observations from a re-analysis of the deposited data

How the results depend on the processing

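No subunit gene was called in any comparison under any alternative run. Over all genes the count called for saline against wild type, 1, was 12 with no filter, 29 with DESeq2, 2 with only the 2 groups fitted and 1 to 54 with a library left out (54 without wild-type replicate 3, 9 without saline replicate 1, 3 without saline replicate 3). For romidepsin against saline it was 0, and 0 to 3 with a library left out (3 without saline replicate 1 and 3 without romidepsin replicate 1). For romidepsin against wild type, 1, it was 2 with no filter, 4 with DESeq2, 0 with the GC correction and 0 to 3 with a library left out (0 without wild-type replicate 2, 2 without wild-type replicate 3, 3 without romidepsin replicate 1). For any difference among the 3 groups, 1, it was 6 with no filter, 23 with DESeq2 and 1 to 12 with a library left out (12 without wild-type replicate 3, 7 without saline replicate 1, 6 without romidepsin replicate 1, 2 without saline replicate 3, 2 without romidepsin replicate 2). The cause was not tested.

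The labels number the libraries of each group from 1. Between libraries of the same number, deviations from the group means had correlations of -0.18 to 0.10. With at most 3 libraries a group, and 2 romidepsin libraries whose deviations mirror each other, these values cannot show whether the numbers pair the libraries. With a replicate block the counts over all genes were 4 for saline against wild type, 0 for romidepsin against wild type and 0 for any difference, and the log2 fold changes that turned were Grik4 for romidepsin against saline (-0.033) and Gria3 for romidepsin against wild type (-0.023).

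Several small log2 fold changes changed sign when a library was left out. For saline against wild type the ranges were -0.049 to 0.080 for Grik2, -0.094 to 0.15 for Grik3, -0.086 to 0.11 for Grik4 and -0.092 to 0.055 for Grik5, and with the GC correction Grik2 was -0.026 and Grik5 0.030. For romidepsin against saline they were -0.16 to 0.0050 for Gria3, -0.16 to 0.050 for Grik3 and -0.021 to 0.13 for Grik4. For romidepsin against wild type they were -0.0067 to 0.076 for Gria1, -0.053 to 0.088 for Gria3, -0.13 to 0.00059 for Grik2, -0.16 to 0.088 for Grik3 and -0.033 to 0.17 for Grik4. With a library left out, the AMPA median was 0.040 to 0.14 for saline against wild type, -0.12 to -0.047 for romidepsin against saline (-0.053 with the GC correction) and -0.020 to 0.068 for romidepsin against wild type, and the kainate median -0.012 to 0.11, -0.021 to 0.13 and 0.00059 to 0.11. Without saline replicate 3 the kainate share of both classes gave p = 0.00952 by exact permutation, 0.0952 adjusted over the shares, and without saline replicate 2 the Grik1 share gave 0.0381, 0.286 adjusted. Depth limits Grik1 most, at 142 to 298 counts a library.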

Other observations

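The level of AMPA subunit mRNA relative to that of the genes listed as auxiliary subunits was highest in the saline libraries. The summed CPM of the 4 AMPA genes over that of the 17 auxiliary subunit genes was 1.15, 1.14 and 1.12 in wild type, 1.20, 1.33 and 1.26 after saline and 1.09 and 1.14 after romidepsin. All 3 saline libraries were above the other 5. Of all genes, 12.6% did not overlap between saline and wild type and 20.9% between saline and romidepsin. The ratio was formed after the data were seen and is given without a test. Against wild type, all 4 AMPA genes were higher after saline and 10 of the 17 auxiliary genes lower, so the ratio restates these directions. The auxiliary genes are richer in GC (median 55.2% of the longest transcript) than the AMPA genes (42.1%). With the GC correction the ratio was 1.19, 1.11 and 1.13 in wild type, 1.18, 1.22 and 1.27 after saline and 1.13 and 1.16 after romidepsin, and saline replicate 1 then lay below wild-type replicate 1.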
